A study of Homo sapiens with 6 samples.

Results

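The 33 genes described here encode enzymes and regulators of cholesterol and fatty acid synthesis, and were taken by symbol from a table of 61552 genes. They comprise 17 enzymes of sterol synthesis, 4 regulators linked to the SREBP transcription factors, and 12 genes of fatty acid synthesis, elongation, desaturation, activation and lipolysis. All 33 symbols matched 1 gene each, and all 33 passed the filter on low counts that left 17363 genes for testing. All samples came from SKOV3, an established line from a human ovarian tumour that carries extra copies of ERBB2. One group had received 1 µM fenbendazole, a tubulin-binding benzimidazole given to animals against worms, for 48 h, and the other had received the solvent DMSO over the same 48 h. Each group held 3 libraries of poly(A) RNA, called fenbendazole 7, 8 and 9 and DMSO 10, 11 and 12 after the numbers in their titles. The design asks how the drug changes the transcriptome of this line. The labels do not say that the 3 libraries of a group came from separate cultures, and the p-values therefore cover library-to-library spread alone, which may be technical.

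Cells make cholesterol from acetyl-CoA through the mevalonate pathway, in which isoprenoid units are joined to squalene and squalene is closed to lanosterol and trimmed to cholesterol. Fatty acids are built from the same acetyl-CoA by carboxylation and repeated condensation, then elongated and desaturated. When sterols in the endoplasmic reticulum are low, SREBP precursors travel to the Golgi with the escort protein SCAP, are cleaved, and switch on genes of both pathways; INSIG proteins hold SCAP back when sterols are plentiful. SREBP2 acts mainly on cholesterol genes and SREBP1 mainly on fatty acid genes, and tumour cells often keep both pathways active.

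Total counts per library ran from 13170775 to 22128930, so that 3 counts corresponded to 0.132 to 0.223 CPM (the share of a library's counts scaled by the TMM method). DMSO 11 stood apart from the other 5 libraries. Its log2 CPM correlated with theirs at 0.919 to 0.948, against 0.960 to 0.983 among the other 5, and across tested genes its deviation from the library mean followed GC content (Spearman rho of 0.775, against -0.428 to -0.176 in the others). Mitochondrial genes took 3.17% of its counts and 3.79% to 4.19% of the counts in the others. The 8 markers of the line and of epithelium summed to 5054 to 5606 CPM with fenbendazole and 8675 to 17248 CPM in DMSO, most of it ERBB2, and WT1 and MUC16 were the lowest of them, at 0.22 to 3.20 CPM. Of other cell types, 5 leukocyte markers summed to 14.8 to 17.4 CPM with fenbendazole and 12.4 to 18.6 CPM in DMSO, mostly CD68, with CD3E at 0 counts in all 6 libraries. The 5 fibroblast markers summed to 56.2 to 58.7 CPM with fenbendazole and 50.1 to 88.9 CPM in DMSO, and the 3 endothelial markers to 12.1 to 13 CPM with fenbendazole and 9.70 to 11.6 CPM in DMSO; their part in the results was not tested. In RNA from bulk cultures, fewer cells of a kind and less RNA per cell cannot be told apart.

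Of the cholesterol and fatty acid genes, 2 of 33 members fell with fenbendazole, LIPG and TM7SF2, and 0 rose. Over all tested genes, 4.03% passed the threshold of an adjusted p of 0.05 in edgeR's quasi-likelihood test (3.11% higher and 0.921% lower with fenbendazole). The median log2 fold change of the 33 members was -0.04, against -0.06 over all tested genes. Values of fenbendazole and DMSO libraries did not overlap for 14 members, 7 higher and 7 lower, and over all tested genes that held for 32.6% (17% higher and 15.5% lower). Without DMSO 11 the groups were apart for 13 members that were higher and 11 that were lower, against 49.6% of genes (24.8% higher and 24.9% lower). DESeq2 on all 6 libraries called 1 member higher (ELOVL5) and 3 lower (SREBF1, TM7SF2 and LIPG), where 10.4% of genes passed (6.11% higher and 4.28% lower). At an unadjusted p under 0.05 in edgeR's test, 8 members were found, IDI1, ELOVL5 and FADS1 above DMSO and EBP, INSIG1, SREBF1, TM7SF2 and LIPG below, where 21.3% of all tested genes had such a p. The SREBP regulators had a median log2 fold change of -0.48, with 4 of 4 below 0, where 55% of all tested genes were below 0; STARD4 was at 0.04 without DMSO 12. The sterol enzymes had a median of -0.07, with 5 above and 12 below 0, and the fatty acid genes one of 0.06, with 7 above and 5 below.

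Leaving out DMSO 11 changed the count of calls more than any other library did. Without it 16 of 33 members passed the threshold, 8 higher and 8 lower with fenbendazole, where 22.3% of 17689 tested genes passed (13.1% higher and 9.23% lower). The 8 higher members were HMGCS1, IDI1, FDPS, ACLY, ELOVL1, ELOVL5, FADS1 and ACSL3, and the 8 lower members were TM7SF2, SC5D, INSIG1, SREBF1, STARD4, SCD, ACSL4 and LIPG. Its p-values hold for the 5 libraries that remain, without the control farthest from the others. Without each of fenbendazole 7, 8 and 9, 0 of 33 members passed, and 147, 152 and 149 of all genes did. At an unadjusted p under 0.05 the members numbered 5, 5 and 4 in those fits, where 13.1%, 13.8% and 12.7% of tested genes had such a p.

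**Figure D1:**
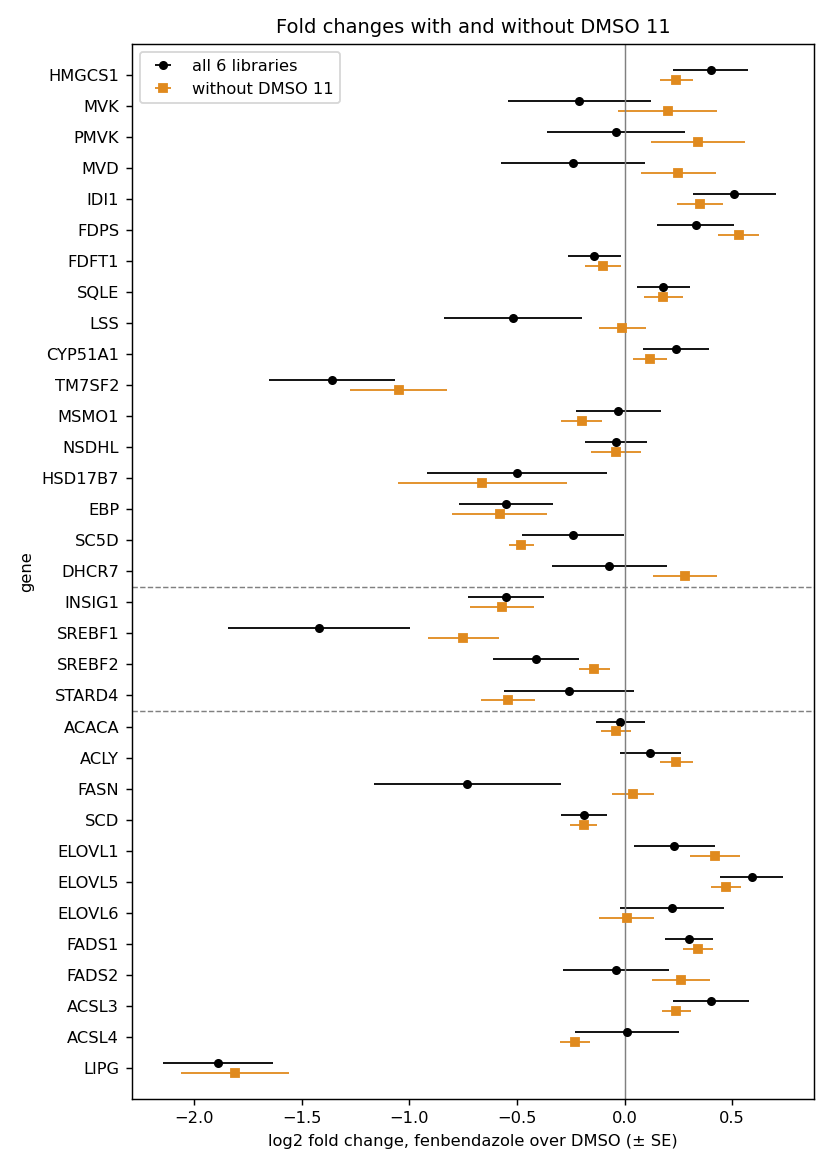
Log2 fold change of each of the 33 members, fenbendazole over DMSO, with its standard error. Circles are from all 6 libraries and squares from the fit without DMSO 11, and dashed lines part sterol enzymes, regulators and fatty acid genes. LIPG and TM7SF2 lie farthest to the left without DMSO 11, at -1.81 and -1.05, and FASN is at -0.73 with all libraries and at 0.04 without DMSO 11.

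The early steps of the mevalonate pathway, which make the isoprenoid units, gave 0 calls in edgeR's test with all libraries. Without DMSO 11 they gave 3 higher ones. With offsets for GC content and transcript length, the test over all 6 libraries called IDI1 and FDPS higher, where 11.9% of genes were. There IDI1 was at 0.32 ± 0.0975 on the log2 scale (adjusted p = 0.0409) and FDPS at 0.52 ± 0.0918 (adjusted p = 0.00245). HMGCS1 did not pass with offsets, at 0.17 ± 0.0682 (adjusted p = 0.0952). HMGCS1, which encodes the synthase that makes HMG-CoA, was at 148, 131 and 144 CPM in fenbendazole 7, 8 and 9, against 116, 81.5 and 124 CPM in DMSO 10, 11 and 12. IDI1, which isomerises isopentenyl diphosphate, was at 53.4, 58.0 and 60.7 CPM with fenbendazole, against 41.1, 30.7 and 49.4 CPM in DMSO. In both genes the groups did not overlap and DMSO 11 was the lowest library. HMGCS1 had a log2 fold change of 0.40 ± 0.175 (SE; adjusted p = 0.244) and IDI1 one of 0.51 ± 0.193 (adjusted p = 0.192). FDPS, which builds farnesyl diphosphate, was at 62.0, 64.2 and 63.4 CPM with fenbendazole, against 41.1, 62.9 and 47.1 CPM in DMSO. Here DMSO 11 was the highest control and lay within the fenbendazole range, and the log2 fold change of 0.33 ± 0.178 (adjusted p = 0.326) was 0.53 ± 0.0967 (adjusted p = 0.00142) without DMSO 11. The kinases MVK and PMVK and the decarboxylase MVD, which act between HMGCS1 and IDI1, had overlapping groups, with log2 fold changes of -0.21, -0.04 and -0.24; without DMSO 11 these were 0.20, 0.34 and 0.25, and none of the 3 passed the threshold in either fit. The table lists 8 pseudogenes named after FDPS and 3 after IDI1, and reads may be shared with them. IDI2-AS1, which overlaps IDI1 on the opposite strand, rose by 1.7 ± 0.354 on the log2 scale (adjusted p = 0.0432), at a mean of 2.15 CPM with fenbendazole and 0.654 CPM in DMSO.

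The enzymes around squalene gave no call in either fit. SQLE, the squalene epoxidase and a rate-limiting step after mevalonate, was at 58.7, 59.8 and 63.3 CPM with fenbendazole, against 52.3, 52.7 and 55.6 CPM in DMSO. Every treated library lay above every control, by a small margin, and the log2 fold change was 0.18 ± 0.122 (adjusted p = 0.427), and 0.18 ± 0.0905 (adjusted p = 0.195) without DMSO 11. LSS, which closes the ring to lanosterol, was at 32.5, 33.1 and 35.2 CPM with fenbendazole, against 32.7, 76.1 and 35.6 CPM in DMSO. The level in DMSO 11 was 2.23 times the mean of the other 2 controls, and the log2 fold change of -0.52 ± 0.321 (adjusted p = 0.381) was -0.01 ± 0.110 without that library. FDFT1, the squalene synthase, had a log2 fold change of -0.14 ± 0.125 and overlapping groups.

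Among the enzymes that turn lanosterol into cholesterol, TM7SF2 fell. It encodes a sterol C14 reductase, an activity that the lamin B receptor LBR also has, and lies on chromosome 11 (65111845 to 65116384, plus strand, GRCh38). TM7SF2 was at 4.30, 5.63 and 4 CPM with fenbendazole, against 10.03, 16.3 and 9.22 CPM in DMSO. The groups did not overlap, and the lowest control stood above the highest treated library by more than the range of the treated group. Its log2 fold change was -1.36 ± 0.292 (SE; adjusted p = 0.0491), and -1.05 ± 0.224 (adjusted p = 0.00418) without DMSO 11. The call is narrow: it was lost without DMSO 10 (adjusted p = 0.102) or 12 (0.0562), without fenbendazole 7, 8 or 9 (0.236, 0.143 and 0.236), with median-of-ratios scaling (0.0507) and with limma-voom (0.0576). TM7SF2 overlaps VPS51 on the same strand, whose log2 fold change was -1 ± 0.452 (adjusted p = 0.253), and -0.25 without DMSO 11. LBR, which is not among the 33 members, stood at a log2 fold change of 0.76 ± 0.198 with all libraries (adjusted p = 0.0827), and of 0.58 ± 0.0713 (adjusted p = 5.67e-05) without DMSO 11.

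None of the later steps passed in edgeR's test with all libraries and no offsets. With GC and length offsets over all 6 libraries, SC5D and MSMO1 were called lower, where 9.46% of genes were. There SC5D was at -0.50 ± 0.0796 on the log2 scale (adjusted p = 0.00133) and MSMO1 at -0.34 ± 0.0917 (adjusted p = 0.0240). EBP, a sterol isomerase, was at 5.76, 4.47 and 5.83 CPM with fenbendazole, against 7.69, 7.33 and 8.48 CPM in DMSO. The groups did not overlap, and the log2 fold change of -0.55 ± 0.217 did not pass (adjusted p = 0.207, and 0.0776 without DMSO 11). SC5D, a sterol desaturase, was at 262, 269 and 267 CPM with fenbendazole, against 367, 197.5 and 378 CPM in DMSO. DMSO 11 lay below the treated libraries and the other 2 controls above them, and SC5D stood at a log2 fold change of -0.24 ± 0.237 (adjusted p = 0.587) with all libraries and of -0.48 ± 0.0588 (adjusted p = 5.36e-05) without DMSO 11. CYP51A1, MSMO1, NSDHL, HSD17B7 and DHCR7 demethylate or reduce the ring and side positions. With all libraries and no offsets they had log2 fold changes of 0.24, -0.03, -0.04, -0.50 and -0.07, with adjusted p of 0.392 or more. HSD17B7 was the least precise of these, at 1.92, 4.11 and 4.53 CPM with fenbendazole, against 3.85, 3.77 and 7.44 CPM in DMSO, and 2 pseudogenes carry its name.

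**Figure D2:**
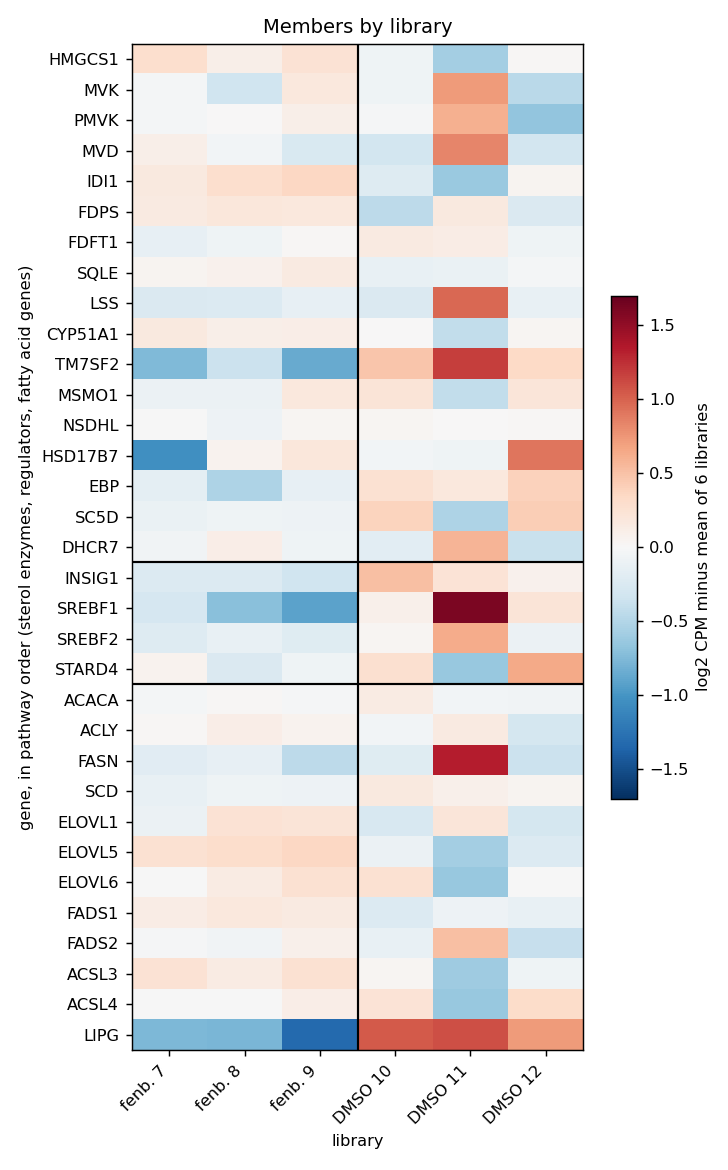
Log2 CPM of each member in each library minus the gene's mean over the 6 libraries, with genes in pathway order down the page and libraries across, fenbendazole on the left. Black lines part the gene groups and the treatments. LIPG and TM7SF2 are lower in all 3 fenbendazole libraries than in any control, and the column of DMSO 11 holds both the strongest red (SREBF1, FASN) and many blues.

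Of the 4 SREBP regulators 0 passed the threshold in edgeR's test with all libraries, and 3 passed, lower, without DMSO 11. DESeq2 on all 6 libraries called SREBF1 lower, where 4.28% of genes were called lower. A fit to the 6 libraries with offsets for GC content and transcript length called INSIG1, SREBF1 and STARD4 lower. In that fit 9.46% of genes were called lower. SREBF1, which encodes SREBP1 (chromosome 17, 17810399 to 17837002, minus strand, GRCh38), was at 27.9, 20.7 and 18.0 CPM with fenbendazole, against 35.8, 103 and 39.5 CPM in DMSO. The groups did not overlap, but DMSO 11 was 2.73 times the mean of the other 2 controls. With all libraries the log2 fold change was -1.42 ± 0.422 (adjusted p = 0.116), and without DMSO 11 it was -0.75 ± 0.165 (adjusted p = 0.00692). With all libraries it was -1.44 ± 0.401 in DESeq2 (adjusted p = 0.00639) and -0.82 ± 0.152 with the offsets (adjusted p = 0.00357). INSIG1, a sterol sensor that retains SCAP and is itself an SREBP target, was at 17.4, 17.4 and 16.2 CPM with fenbendazole, against 29.3, 24.1 and 21.5 CPM in DMSO. The groups did not overlap and DMSO 11 lay between the other 2 controls. INSIG1 stood at -0.55 ± 0.177 on the log2 scale (adjusted p = 0.134), and of -0.57 ± 0.148 (adjusted p = 0.0128) without DMSO 11, much the same with and without that library.

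SREBF2, which encodes SREBP2, was at 126, 135 and 128 CPM with fenbendazole, against 150.5, 228 and 137.5 CPM in DMSO. All treated libraries were below all controls, with DMSO 12 close to fenbendazole 8, and the log2 fold change of -0.41 ± 0.199 (adjusted p = 0.282) was -0.14 ± 0.0712 (adjusted p = 0.177) without DMSO 11. STARD4, a carrier of cholesterol between membranes, was at 45.8, 37.2 and 41.7 CPM with fenbendazole, against 53.0, 28.2 and 68.6 CPM in DMSO. The lowest control was DMSO 11, below every treated library. Its log2 fold change was -0.26 ± 0.302 (adjusted p = 0.643) with all libraries, -0.54 ± 0.126 (adjusted p = 0.00811) without DMSO 11 and 0.04 (adjusted p = 0.942) without DMSO 12. STARD4-AS1, on the opposite strand, had one of -0.59 ± 0.275 (adjusted p = 0.267), and RAI1, opposite SREBF1, one of -0.68 ± 0.274 (adjusted p = 0.212).

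**Figure D3:**
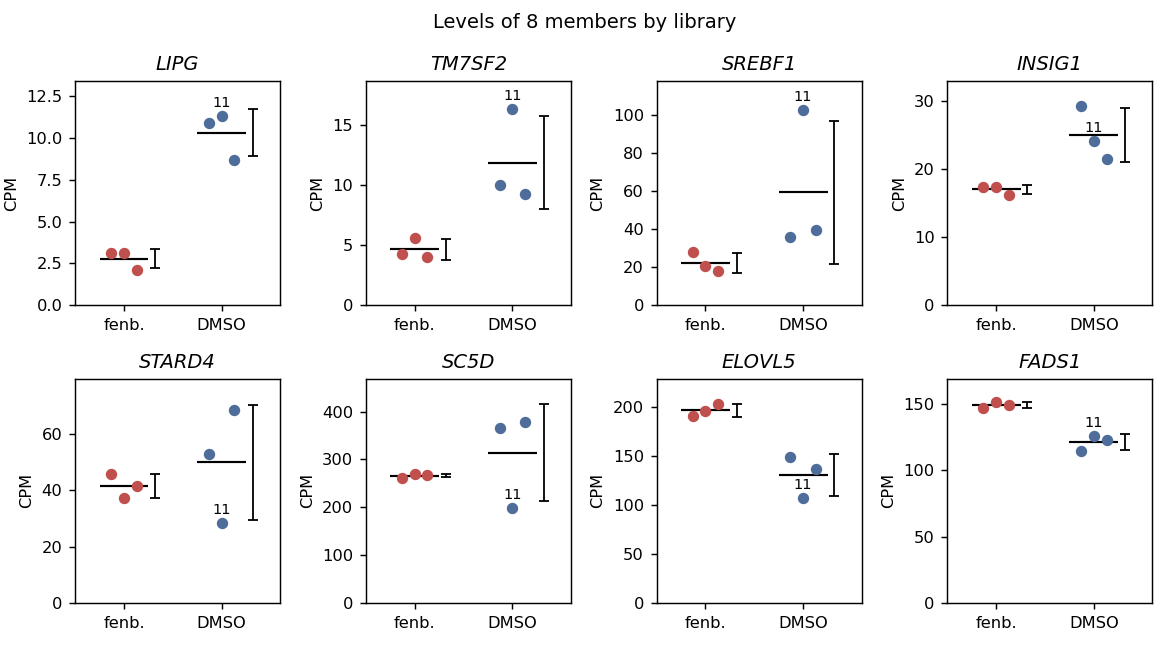
CPM of 8 members in each library, fenbendazole in red and DMSO in blue, with a line at the group mean and a bar of 1 SD (n = 3); DMSO 11 is marked. In LIPG, TM7SF2, SREBF1 and INSIG1 every treated library is below every control, in ELOVL5 and FADS1 every treated library is above, and in STARD4 and SC5D DMSO 11 lies below the treated libraries and the other 2 controls above them.

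Promoter sequences are shown for HMGCS1, TM7SF2, INSIG1, SREBF2 and LIPG, which stand for an early enzyme, the sterol enzyme that fell, 2 regulators and the lipase that fell. Each is the 250 bases before the start of the first RefSeq entry of the gene (GRCh38.p14), 5′ to 3′ on the gene's strand. Capitals mark matches, on either strand, to TCACNCCAC (the core of a sterol regulatory element), CCAAT (bound by NF-Y), GGGCGG (bound by SP1) and CACGTG (an E-box); NF-Y and SP1 are known partners of SREBPs. The regions are chr5:43313413-43313662 (minus) for HMGCS1, chr11:65111622-65111871 (plus) for TM7SF2, chr7:155297628-155297877 (plus) for INSIG1, chr22:41832855-41833104 (plus) for SREBF2 and chr18:49561807-49562056 (plus) for LIPG. Set against the gene spans given with the counts, the LIPG window lies wholly inside the gene, and the others overlap theirs in part.
HMGCS1: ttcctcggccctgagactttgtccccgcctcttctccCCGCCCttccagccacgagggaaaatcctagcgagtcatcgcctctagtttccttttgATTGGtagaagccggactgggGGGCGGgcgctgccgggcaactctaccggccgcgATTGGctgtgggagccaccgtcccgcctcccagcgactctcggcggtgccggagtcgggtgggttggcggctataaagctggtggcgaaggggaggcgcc
TM7SF2: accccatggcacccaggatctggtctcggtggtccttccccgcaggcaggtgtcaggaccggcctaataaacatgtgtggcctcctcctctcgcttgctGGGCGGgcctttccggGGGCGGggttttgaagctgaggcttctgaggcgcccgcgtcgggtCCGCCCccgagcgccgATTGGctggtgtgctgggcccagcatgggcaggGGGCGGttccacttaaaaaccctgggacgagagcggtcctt
INSIG1: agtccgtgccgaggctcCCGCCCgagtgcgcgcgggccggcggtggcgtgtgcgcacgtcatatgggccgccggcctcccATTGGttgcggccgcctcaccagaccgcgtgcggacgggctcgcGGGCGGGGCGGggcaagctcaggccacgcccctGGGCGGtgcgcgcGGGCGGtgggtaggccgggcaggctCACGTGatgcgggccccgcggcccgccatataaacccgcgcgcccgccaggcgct
SREBF2: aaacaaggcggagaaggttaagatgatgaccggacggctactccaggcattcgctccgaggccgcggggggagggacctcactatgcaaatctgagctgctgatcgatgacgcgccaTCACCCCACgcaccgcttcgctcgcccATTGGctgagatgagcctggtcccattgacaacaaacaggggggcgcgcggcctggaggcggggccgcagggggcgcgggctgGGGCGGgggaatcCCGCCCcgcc
LIPG: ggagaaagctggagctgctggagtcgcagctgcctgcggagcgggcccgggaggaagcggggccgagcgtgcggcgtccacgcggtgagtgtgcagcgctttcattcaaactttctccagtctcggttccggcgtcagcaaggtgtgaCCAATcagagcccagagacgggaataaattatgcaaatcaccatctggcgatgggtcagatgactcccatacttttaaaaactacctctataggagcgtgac
Of the 33 members 30 had an entry; FDFT1, SQLE and FASN had none. TCACNCCAC was found in 1 of the 30 windows, that of SREBF2, and in 0.875% of 27305 promoters. CCAAT was found in 21 of 30 (12 of 15 sterol enzymes, 3 of 4 regulators and 6 of 11 fatty acid genes) and in 33% of all promoters. GGGCGG was in 26 of 30 and in 42.3% of all, and CACGTG in 3 of 30, among them INSIG1, and in 6.49% of all. The LIPG window held 1 CCAAT and 0 GGGCGG, that of INSIG1 held 1 CCAAT and 5 GGGCGG of which 2 overlap, and that of TM7SF2 held 1 CCAAT and 4 GGGCGG. The 27305 promoters were not limited to the 17363 tested genes, whereas all members were tested, and shares among tested genes were not taken. These matches describe the letters in the windows and say nothing of binding.

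Of the fatty acid genes LIPG fell, and it had the largest fold change of the 33 members. It encodes endothelial lipase, a secreted phospholipase that releases fatty acids from lipoproteins, and lies on chromosome 18 (49560699 to 49599185, plus strand, GRCh38). LIPG had 47, 43 and 36 counts in fenbendazole 7, 8 and 9, against 195, 258 and 117 counts in DMSO 10, 11 and 12. On the CPM scale these were 3.11, 3.10 and 2.12 with fenbendazole, against 10.9, 11.3 and 8.70 in DMSO. The groups were far apart and DMSO 11 was close to DMSO 10. The means of 2.78 ± 0.570 CPM with fenbendazole and 10.3 ± 1.40 CPM in DMSO (SD, n = 3 each) amount to -1.89 ± 0.255 on the log2 scale (adjusted p = 0.00865); the fit without DMSO 11 gave -1.81 ± 0.253 (adjusted p = 0.000164). The call held without each DMSO library and was lost without fenbendazole 7 (adjusted p = 0.0637), 8 (0.0619) or 9 (0.0618). No gene in the table overlaps LIPG.

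The core of fatty acid synthesis did not pass the threshold in edgeR's test with all libraries and no offsets, and SCD and ACLY passed without DMSO 11. ACACA, acetyl-CoA carboxylase, which commits carbon to fatty acids, was at 229, 238 and 231 CPM with fenbendazole, against 258, 226.5 and 225 CPM in DMSO. These groups overlapped within a narrow band, and the log2 fold change was -0.02 ± 0.115 (adjusted p = 0.928). FASN, fatty acid synthase, was at 114, 118 and 95.2 CPM with fenbendazole, against 112, 328 and 100.1 CPM in DMSO. The control DMSO 11 was 3.09 times the mean of DMSO 10 and 12, and the log2 fold change of -0.73 ± 0.434 (adjusted p = 0.367) was 0.04 ± 0.0962 (adjusted p = 0.798) without it. SCD, which puts the first double bond into fatty acids, was at 211, 219 and 217 CPM with fenbendazole, against 258, 244 and 239 CPM in DMSO. All treated libraries were lower, by a small step. It did not pass with all libraries and no offsets (-0.19 ± 0.107, adjusted p = 0.332) and passed without DMSO 11 (-0.19 ± 0.0633, adjusted p = 0.0412). With GC and length offsets over all 6 libraries SCD was called lower (-0.22 ± 0.0632, adjusted p = 0.0276), where 9.46% of genes were. ACLY, which supplies cytosolic acetyl-CoA, stood at a log2 fold change of 0.12 ± 0.141 with all libraries (adjusted p = 0.649), and of 0.24 ± 0.0763 (adjusted p = 0.0365) without DMSO 11.

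Among elongases and the desaturases of polyunsaturated chains, 0 passed edgeR's test with all libraries and 3 were higher without DMSO 11. With GC and length offsets over all 6 libraries, ELOVL1, ELOVL5 and FADS1 were called higher, where 11.9% of genes were. Their log2 fold changes there were 0.40 ± 0.109, 0.40 ± 0.0728 and 0.33 ± 0.0704 (adjusted p = 0.0235, 0.0029 and 0.00698). DESeq2 with all libraries called ELOVL5 higher (0.58 ± 0.180, adjusted p = 0.0176). ELOVL5, which elongates polyunsaturated fatty acids, was at 190.3, 196 and 203 CPM with fenbendazole, against 149, 107 and 136 CPM in DMSO. No control reached the treated range, and ELOVL5 had a log2 fold change of 0.59 ± 0.148, with an adjusted p of 0.0768 with all libraries and 0.000247 without DMSO 11 (0.47 ± 0.0688). FADS1, the delta-5 desaturase that acts beside ELOVL5, was at 147, 152 and 149.6 CPM with fenbendazole, against 114, 126 and 123 CPM in DMSO. Its groups did not overlap and DMSO 11 was close to the other 2 controls, with a log2 fold change of 0.30 ± 0.112 over all libraries (adjusted p = 0.182), and of 0.34 ± 0.0692 (adjusted p = 0.00309) without DMSO 11. FADS1 lies within the annotated span of FADS2 on the opposite strand, so that their reads cannot be fully separated without strand, and FADS2, the delta-6 desaturase, was at -0.04 ± 0.246 (adjusted p = 0.932). ELOVL1, which acts on very long saturated chains, had 0.23 ± 0.188 (adjusted p = 0.505), and 0.42 ± 0.116 (adjusted p = 0.0185) without DMSO 11, while ELOVL6, which extends palmitate, had 0.22 ± 0.243 (adjusted p = 0.633), and 0.01 ± 0.129 (adjusted p = 0.979) without it.

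The 2 acyl-CoA synthetases parted once DMSO 11 was left out. ACSL3, which activates fatty acids at lipid droplets and the endoplasmic reticulum, was at 234, 217 and 236 CPM with fenbendazole, against 202, 130.5 and 188 CPM in DMSO. Its groups did not overlap; the log2 fold change was 0.40 ± 0.176 (adjusted p = 0.242), and 0.24 ± 0.0674 (adjusted p = 0.0202) without DMSO 11. ACSL4, which prefers arachidonic acid and is known for its part in ferroptosis, was at 128, 128 and 139 CPM with fenbendazole, against 152, 82.2 and 159.9 CPM in DMSO, and the treated libraries lay between DMSO 11 and the other controls. Its log2 fold change was 0.01 ± 0.242 (adjusted p = 0.991) with all libraries and -0.23 ± 0.0703 (adjusted p = 0.0288) without DMSO 11. With GC and length offsets over all 6 libraries, ACSL4 was called lower (-0.25 ± 0.0705, adjusted p = 0.0277), where 9.46% of genes were. ACSL3 did not pass with offsets (0.13 ± 0.0815, adjusted p = 0.2785). The difference between ACSL3 and ACSL4 was not tested.

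Per transcript length, on the authors' FPKM scale, the members spanned a wide range of levels. ELOVL5 had the highest mean level with fenbendazole, at 63.0 ± 1.44 FPKM, and was at 43.7 ± 4.86 FPKM in DMSO (SD, n = 3 each), below FDFT1, SC5D and ACLY there. FDFT1 stood at 44.7 ± 0.547 FPKM with fenbendazole and 52.6 ± 7.12 FPKM in DMSO, ACLY at 46.0 ± 1.66 and 45.5 ± 8.77 FPKM, and SC5D at 38.9 ± 0.469 and 51.3 ± 17 FPKM in these groups. The SDs of these 3 overlapped in DMSO. SREBF2, at 22.7 ± 0.828 FPKM with fenbendazole and 31.8 ± 9.69 FPKM in DMSO, was above SREBF1, at 5.58 ± 1.39 FPKM with fenbendazole and 15.1 ± 7.26 FPKM in DMSO. LIPG had the lowest level, at 0.393 ± 0.0250 FPKM with fenbendazole and 1.37 ± 0.194 FPKM in DMSO, followed with fenbendazole by HSD17B7 at 1.93 ± 1.09 FPKM and TM7SF2 at 2.09 ± 0.505 FPKM.

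**Figure D4:**
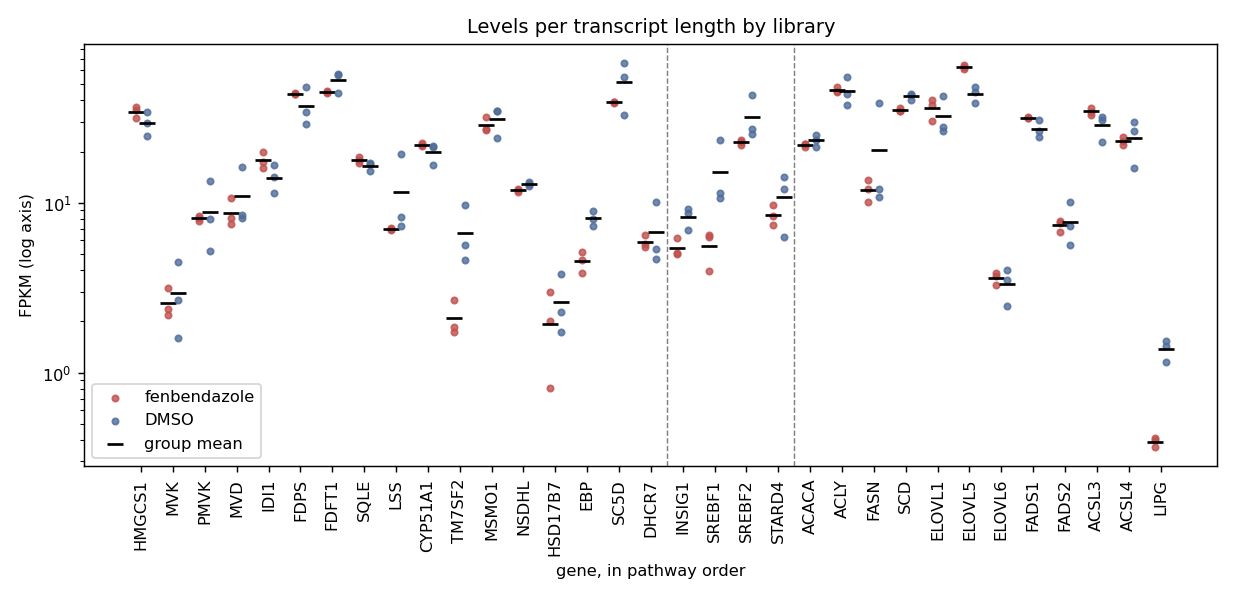
FPKM of each member in each library on a log axis, fenbendazole in red to the left of DMSO in blue, with black dashes at the group means; dashed lines part sterol enzymes, regulators and fatty acid genes. Mean levels run from LIPG, at 0.393 FPKM with fenbendazole and 1.37 FPKM in DMSO, up to ELOVL5 at 63.0 FPKM with fenbendazole and FDFT1 at 52.6 FPKM in DMSO, and the DMSO points of FASN, SREBF1 and LSS are spread by 1 high library.

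The spread of DMSO 11 among the members followed the base composition of their transcripts. GC content of the longest transcript (GENCODE release 29) ran from 34.2% in STARD4 to 65.3% in FASN. Across the 33 members, log2 CPM in DMSO 11 minus the mean of DMSO 10 and 12 correlated with GC content with a Spearman rho of 0.95, against 0.81 across 16975 tested genes; between DMSO 12 and DMSO 10 the values were -0.26 and -0.22. These correlations are across genes of the same libraries and describe them. DMSO 11 was at 1.40 to 3.09 times the other 2 controls in the 12 members with a GC content of at least 55%, and at 0.46 to 1.16 times in the 12 members under 45%. The median log2 fold change of the GC-rich members was -0.22 with all libraries and 0.22 without DMSO 11, and that of the GC-poor members 0.12 and -0.10. LIPG at 44.3%, INSIG1 at 46% and FADS1 at 50.1% were within 0.95 to 1.16 times of the other controls in DMSO 11. In a fit with offsets for GC content and transcript length over all 6 libraries, 14 members passed the threshold, 5 higher (IDI1, FDPS, ELOVL1, ELOVL5 and FADS1) and 9 lower (TM7SF2, MSMO1, SC5D, INSIG1, SREBF1, STARD4, SCD, ACSL4 and LIPG), where 21.4% of tested genes passed (11.9% higher and 9.46% lower). All 14 but MSMO1 were also called, in the same direction, without DMSO 11.

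**Figure D5:**
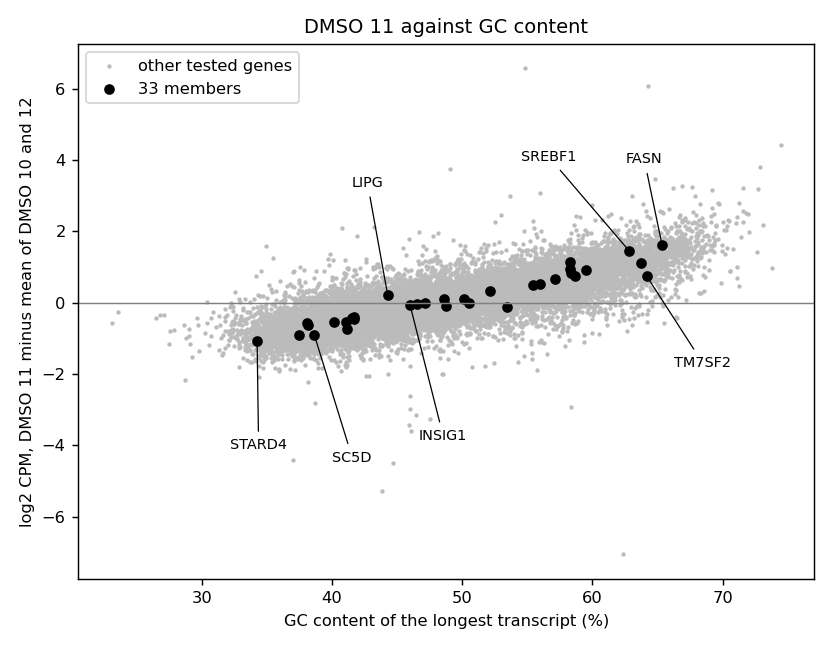
GC content of each tested gene's longest transcript in percent (x axis) against log2 of CPM plus 0.5 in DMSO 11 minus the mean over DMSO 10 and 12 (y axis), members in black and other tested genes in grey. The members rise from STARD4 at 34.2% GC to FASN at 65.3% GC, with a Spearman rho of 0.95 over 33 genes.

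Genes of the same pathways outside the 33 gave 3 calls, where 4.03% of all tested genes passed (3.11% higher and 0.921% lower). Among 18 other genes of the sterol pathway and of SREBP handling, 2 rose and 0 fell; their median on the log2 scale was 0.16. ACAT2, which joins acetyl-CoA units at the head of the mevalonate pathway, was at 23.4, 24.8 and 28.9 CPM with fenbendazole, against 15.2, 13.95 and 14.9 CPM in DMSO, a log2 fold change of 0.81 ± 0.166 (adjusted p = 0.0408). TMEM97, a sterol-regulated membrane protein that binds the NPC1 cholesterol transporter, was at 35.3, 33.7 and 38.6 CPM with fenbendazole, against 22.0, 13.3 and 18.0 CPM in DMSO, a log2 fold change of 1.02 ± 0.211 (adjusted p = 0.0438). In both genes all treated libraries stood above all controls, and without DMSO 11 the changes were 0.78 ± 0.139 (adjusted p = 0.00116) and 0.85 ± 0.129 (adjusted p = 0.000327). TCP1, which overlaps ACAT2 on the opposite strand, rose too (0.64 ± 0.110, adjusted p = 0.0207) and had a mean of 332 CPM with fenbendazole and 213 CPM in DMSO. IFT20 overlaps TMEM97 on the opposite strand and was at -0.12 ± 0.187 on the log2 scale (adjusted p = 0.729). Its mean was 20.7 CPM with fenbendazole and 22.6 CPM in DMSO, and 2 pseudogenes are named after TMEM97. Without strand in the counts, reads of ACAT2 and TCP1, or of TMEM97 and IFT20, cannot be told apart with certainty. The calls of ACAT2 and TMEM97 were lost without DMSO 10 (adjusted p = 0.120 and 0.0596), DMSO 12 (0.0790 and 0.0835), fenbendazole 7 (0.162 and 0.184), 8 (0.179 and 0.153) and 9 (0.225 and 0.212), and with upper-quartile scaling (0.0554 and 0.0579). SCAP was at -0.58 ± 0.309 (adjusted p = 0.321), and at -0.10 ± 0.116 (adjusted p = 0.592) without DMSO 11, and INSIG2 was at 0.37 ± 0.190 (adjusted p = 0.299).

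Of 8 LXR factors and their lipid targets 1 fell and 0 rose. LPCAT3, which puts polyunsaturated chains into phospholipids, was at 18.5, 18.8 and 18.8 CPM with fenbendazole, against 30.1, 30.6 and 28.6 CPM in DMSO. Both groups were tight and apart, and the log2 fold change was -0.67 ± 0.145 (adjusted p = 0.0485), and -0.64 ± 0.119 (adjusted p = 0.00150) without DMSO 11. LPCAT3 overlaps C1S and EMG1 on the opposite strand, and without strand their reads cannot be told apart with certainty; C1S was at a mean of 31.2 CPM with fenbendazole and 47.4 CPM in DMSO (-0.61 ± 0.160, adjusted p = 0.0863) and EMG1 at 0.13 ± 0.178 on the log2 scale. The call of LPCAT3 was lost without DMSO 10 or 12 (adjusted p = 0.134 and 0.0818), without fenbendazole 7, 8 or 9 (0.261, 0.236 and 0.236) and with no filter on low counts (0.0981). ABCA1, an LXR target that exports cholesterol, was at 75.2, 68.8 and 74.1 CPM with fenbendazole, against 73.5, 61.8 and 81.8 CPM in DMSO, with overlapping groups and a log2 fold change of 0.01 ± 0.143 (adjusted p = 0.981). Of 22 other genes of fatty acid synthesis and elongation, 19 were tested and 0 passed; ACSS2, which makes acetyl-CoA from acetate and is a known SREBP target, was nearest at 48.5, 53.0 and 57.4 CPM with fenbendazole, against 77.1, 104 and 78.2 CPM in DMSO (-0.70 ± 0.162, adjusted p = 0.0591). GGT7, which overlaps ACSS2 on the opposite strand, was at -0.61 ± 0.2645 on the log2 scale (adjusted p = 0.238). Of 16 lipases, uptake and triglyceride genes, 13 were tested and 0 passed. Without DMSO 11, 6 sterol pathway genes rose and 3 fell, 4 and 3 fatty acid genes, 0 and 1 LXR genes, and 1 and 1 of the lipase list, where 13.1% of all tested genes were called higher and 9.23% lower. At an unadjusted p under 0.05 with all libraries, the sterol, LXR, fatty acid and lipase lists had 7, 1, 4 and 3 genes by edgeR, where 21.3% of all tested genes had such a p; DESeq2 called 4, 1, 2 and 1 at its adjusted p, where 10.4% of genes passed.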

How the data were processed

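Poly(A) RNA libraries of SKOV3 cells were analysed from 1 deposited table. Per the file headers it gives raw read counts, which the authors did not normalise, and FPKM values (scaled to length and depth) for the same 6 libraries; the submitters' processing notes list GRCh38 as the build and, as tools, HISAT2 2.1.0, edgeR, StringTie 1.3.4b and CASAVA 1.8. Which program counted reads, with which strand setting and annotation, is not given in the sources used here. Counts of all genes were tested with edgeR 4.0.16 in R 4.3.3 (quasi-likelihood F test, TMM, robust dispersions, filterByExpr) with Benjamini-Hochberg adjustment over 17363 genes; SE was derived from the F statistic. Replicate pairs differed by more than sampling noise, by chi-square over its degrees of freedom. This was 5.34 to 7.62 among fenbendazole libraries and 9.37 for DMSO 10 and 12. It was 91.2 for DMSO 10 and 11 and 100 for DMSO 11 and 12. Members and lists were chosen with earlier results of these data known. Library values are given for members past the threshold, for up to 5 further members per group with the smallest p, and for HMGCS1, SQLE, INSIG1, SREBF1, SREBF2, ACACA, FASN, SCD and LIPG; of the wider lists, for genes past the threshold and ACAT2, SCAP, INSIG2, ACSS2 and ABCA1; 1 further gene that the rule names is not reported here. SC5D, ACSL4, HSD17B7 and LBR were added after their values were seen. Alternatives used DESeq2 1.42.0, limma 3.58.1, other scalings and filters, and GC and length offsets (mgcv 1.9.3, longest GENCODE transcript, covering 97.8% of tested genes). Simulated data were used to check the edgeR fit. They held no GC trend and no outlying library, so that the check does not cover a library like DMSO 11. Figures used matplotlib 3.10.9.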

Additional observations from a re-analysis of the deposited data

How the results depend on the processing

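No paired analysis was possible because the libraries of the groups carry different numbers and share none. With all 6 libraries 700 genes passed, 0 members higher and 2 lower, with 1 sterol enzyme, 0 regulators, 1 fatty acid gene, and 2, 1, 0 and 0 genes of the sterol, LXR, fatty acid and lipase lists. In that order the counts were 3633, 5, 9, 5, 3, 6, 8, 1, 7 and 2 with GC and length offsets, 4587, 7, 8, 6, 3, 6, 10, 1, 5 and 3 with limma-voom quality weights (DMSO 11 weighted 0.074), 1697, 1, 3, 1, 1, 2, 4, 1, 2 and 1 with DESeq2, and 210, 0, 1, 0, 0, 1, 0, 0, 0 and 0 at an adjusted p of 0.01. The genes tested numbered 16975 with offsets, 16338 with DESeq2, and 17363 in the first fit, with quality weights and at 0.01. With median-of-ratios scaling and with limma-voom 1 member passed, lower, and 0 sterol enzymes, where 702 and 704 of 17363 genes passed. On FPKM with a pseudocount of 1, 2 sterol enzymes, 0 fatty acid genes and 1 gene of the fatty acid list passed; with 0.1, 1 member passed, lower, with 0 fatty acid genes and 1 of that list. Of 14043 genes tested on FPKM, 660 passed with a pseudocount of 1 and 627 with 0.1. Without a low-count filter 1 sterol list gene and 0 LXR genes passed; with upper-quartile scaling, which put the median of all genes at -0.13 against -0.06, 0 sterol list genes and 1 fatty acid list gene. Over all genes 674 of 39099 passed without the filter and 686 of 17363 with upper-quartile scaling. Leaving out 1 library gave 147 to 3946 genes, 0 to 8 members higher and 0 to 8 lower, 0 to 5 sterol enzymes, 0 to 3 regulators, 0 to 8 fatty acid genes, and 0 to 9, 0 to 1, 0 to 7 and 0 to 2 genes of the 4 lists; the highest counts were without DMSO 11. Between 17689 and 18291 genes were tested in those fits, and 17689 without DMSO 11. Direction was kept in every setting by 22 of 26 named genes. Leaving out 1 library put STARD4 at -0.54 to 0.04 and FASN at -1.01 to 0.04. It turned for STARD4 without DMSO 12 (0.04), ACACA with GC offsets and without DMSO 10 (0.05 each), FASN with GC offsets (0.11) and without DMSO 11 (0.04), and ABCA1 with upper-quartile scaling (-0.07), quality weights (-0.05), FPKM (-0.04 with each pseudocount), without fenbendazole 7 (-0.01) and without DMSO 11 (-0.09); the cause was not tested. LIPG had a mean FPKM under 1 and no value there. HSD17B7, at 1.92 to 7.44 CPM, had an SE of 0.42 on the log2 scale, the widest after SREBF1 and FASN among the members; depth as its cause was not tested.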
